A study of Mus musculus with 12 samples.

Results

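The 9 genes *Pcp2*, *Calb1*, *Pcp4*, *Itpr1*, *Car8*, *Aldoc*, *Plcb4*, *Ppp1r17* and *Rora* are widely used as markers of Purkinje cells. They were taken by symbol from a list, with no threshold on their values, and all 9 were among the 52459 genes counted. The libraries came from male mice of 4 months of age, either *Tpp1*-/- homozygotes (T), carrying a targeted disruption of *Tpp1* in the whole body, or wild-type male siblings (N), the line being kept by heterozygous crosses. Loss of the lysosomal peptidase TPP1 causes classical late-infantile neuronal ceroid lipofuscinosis. RNA of whole cerebellum (Cb) and of forebrain/midbrain (F/M) gave 4 groups, Cb-N, Cb-T, F/M-N and F/M-T, with 3 libraries each. The methods of the study name 3 mice per genotype as the source of both areas, so that a Cb and an F/M library may share a mouse, but the labels do not tie libraries to mice, and the p-values measure the spread between these libraries.

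Purkinje cells are the only output neurons of the cerebellar cortex. They are GABAergic, carry very large dendritic trees and receive input from granule cells through parallel fibers and from the inferior olive through climbing fibers. Parallel fiber input activates metabotropic glutamate receptors, which act through Gq proteins and phospholipase C beta to make IP3. IP3 then opens the IP3 receptor and releases calcium from the endoplasmic reticulum. Loss of Purkinje cells is a known feature of several lysosomal disorders. In RNA of whole tissue, fewer cells of a type and less RNA per cell cannot be told apart, and every value below is a level or a difference of that mixed RNA.

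Total counts ranged from 21428379 to 24458189 per library, and 3 counts, taken as the smallest detectable level, corresponded to 0.123 to 0.14 CPM (counts scaled to library size and normalized by TMM). *Tpp1* itself was at 113 ± 1.17 CPM (SD, n = 3) in Cb-N and 29.7 ± 1.57 in Cb-T, and at 90.3 ± 3.54 in F/M-N and 23.0 ± 1.10 in F/M-T, in the direction of the labels. A gene was called lower or higher at an adjusted p (FDR) below 0.1 in the quasi-likelihood test of edgeR, with Benjamini-Hochberg adjustment over all genes tested. A differentially expressed gene (DEG) had in addition a fold change of at least 1.5, which is 0.585 on the log2 scale. These limits are those of the study, which also asked for detection by more than 1 method, whereas DEG here rest on edgeR alone.

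Several markers of other cells and regions differed between Cb-T and Cb-N and have to be read beside every result on Cb below. Of 16 Hox genes, which mark the hindbrain behind the cerebellum and the spinal cord, 10 passed the filter on low counts and all 10 were higher in Cb-T. Their sum was 0.371 to 0.596 CPM in the Cb-N libraries and 14.3 to 14.9 CPM in the Cb-T libraries, with *Hoxb5*, *Hoxb6*, *Hoxb7*, *Hoxc4*, *Hoxc5*, *Hoxc6*, *Hoxd3* and *Hoxd4* at 0 in all Cb-N libraries. Of 14 genes of brainstem neurons, 11 were tested and all 11 were higher, with a sum of 9.45 to 11.0 CPM over Cb-N libraries against 39.9 to 43.7 CPM over Cb-T libraries and with no gene at 0 in every Cb-N library. The 14 microglial genes tested were all higher, and their sum went from 197 to 210 CPM over the Cb-N libraries to 748 to 759 CPM over the Cb-T libraries. All 10 oligodendrocyte genes were higher, with a sum of 4841 to 4950 CPM over Cb-N libraries against 6319 to 6380 CPM over Cb-T libraries. Their part in the lower share of the Purkinje cell genes was not tested.

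The label was checked first, by comparing wild-type cerebellum with wild-type F/M. All 9 genes were higher in Cb-N than in F/M-N, where 40.3% of the 16725 genes tested were higher, and none overlapped between the libraries of the 2 areas, as was the case for 39.5% of all genes. The most restricted was *Pcp2*, with a mean of 248 CPM in Cb-N and 4, 5 and 2 raw counts in the F/M-N libraries, near or below the smallest detectable level. *Ppp1r17* was 243-fold and *Car8* 133-fold higher in Cb-N. The other members were less restricted, with *Calb1* 7.42-fold, *Itpr1* 5.6-fold, *Plcb4* 3.89-fold, *Rora* 3.4-fold, *Aldoc* 2.51-fold and *Pcp4* 1.78-fold higher in Cb-N. All 6 of these were also plainly expressed outside the cerebellum, at F/M-N levels from 78.5 CPM for *Pcp4* to 762 CPM for *Itpr1*.

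Per kilobase of exon, the levels in Cb-N spanned more than an order of magnitude. *Aldoc* was highest, at 576 ± 9.24 RPKM (SD, n = 3), followed by *Car8* at 456 ± 0.376. *Itpr1* at 234 ± 8.7 and *Calb1* at 224 ± 4.34 RPKM overlapped between libraries. *Ppp1r17* stood at 152 ± 3.57 RPKM, above *Pcp4* at 137 ± 6.01 and *Pcp2* at 136 ± 2.07, which overlapped with each other. *Plcb4* at 49.5 ± 0.799 and *Rora* at 39.3 ± 1.20 RPKM were the lowest. Apart from these 2 overlapping pairs, neighbors in the order were separated in all 3 libraries.

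In Cb, 8 of the 9 Purkinje cell genes were lower in *Tpp1*-/- mice and *Aldoc* was higher, over a range of log2 fold changes from -0.31 for *Rora* to 0.050 for *Aldoc* (median -0.23). None reached the 1.5-fold limit of a DEG. Among all 16382 genes tested in Cb, 27.9% were lower and 29.8% higher at the same limit, and the median change of all genes was 0.012. The background depends on the kind of gene. Of 2481 genes with at least 100 CPM in Cb-N, 61.1% were lower, and of 155 genes outside the list that were at least 8-fold higher in Cb-N than in F/M-N and at 5 CPM or more, 79.4% were lower with a median of -0.31. The share of lower genes among the 9 was near that of these cerebellum-restricted genes, and their median change was smaller in size. Of the 9, only *Pcp2*, *Car8* and *Ppp1r17* were themselves at least 8-fold higher in Cb-N, so that the sets differ in restriction.

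**Figure D1:**
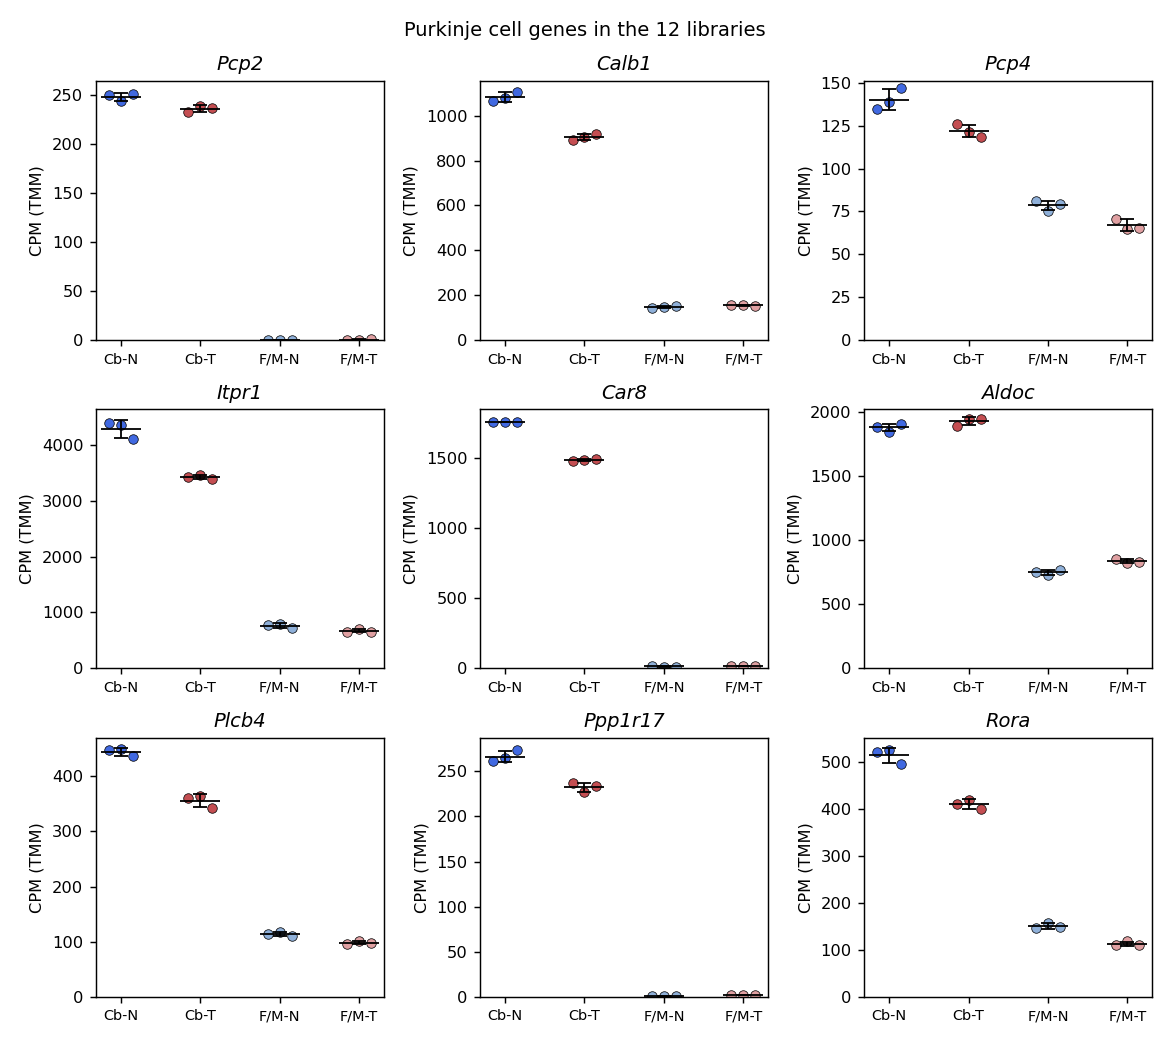
TMM-normalized CPM (vertical axes, linear, starting at 0) of the 9 Purkinje cell genes in the 12 libraries, 1 panel per gene; points are libraries and bars the mean and SD of 3. The Cb-T points lie below the Cb-N points for 8 genes and overlap them for *Aldoc*.

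Of the 9 genes, *Rora*, *Itpr1* and *Plcb4* had the largest falls. *Itpr1* (chr6:108213096-108551109, plus strand, GRCm38) encodes the IP3 receptor of the endoplasmic reticulum. It was at 4401, 4350 and 4103 CPM among the wild-type libraries, and at 3426, 3469 and 3383 among the mutant ones. The 2 groups did not overlap, as was the case for 29.4% of all genes tested in the lower direction, and the spread between wild-type libraries was wider than between mutant ones. The log2 fold change was -0.31 (SE 0.021, adjusted p = 1.3e-16), a level 19.3% lower (percent change -19.3). *Plcb4* (chr2:135659011-136014593, plus strand) encodes phospholipase C beta 4, which makes IP3 downstream of metabotropic glutamate receptors in many Purkinje cells. Its level was 447, 450 and 436 CPM in Cb-N libraries against 360, 365 and 343 in Cb-T, again without overlap. Its log2 fold change of -0.31 (SE 0.025, adjusted p = 2.8e-14) was almost that of *Itpr1*, which it precedes in the pathway. *Rora*, which is outside that pathway, was also at -0.31.

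*Car8* (chr4:8143362-8239041, minus strand) encodes a carbonic anhydrase-related protein without enzyme activity that binds the IP3 receptor and lowers its affinity for IP3. It was at 1755, 1758 and 1756 CPM in Cb-N libraries against 1480, 1487 and 1491 in Cb-T. These were the closest replicates of the 9 genes, with an SD of 0.0825% of the mean in Cb-N at 37837 to 39528 raw counts. That is less than counting error alone would give at this depth, so this spread does not measure precision. The groups did not overlap. The log2 fold change was -0.23 (SE 0.02, adjusted p = 2.6e-13), smaller in size than that of its partner *Itpr1*. *Calb1* (chr4:15881264-15908064, plus strand) encodes calbindin, the calcium buffer by which Purkinje cells are commonly stained. It was at 1066, 1079 and 1107 CPM in Cb-N libraries against 894, 907 and 918 in Cb-T, without overlap, a log2 fold change of -0.25 (SE 0.021, adjusted p = 3.8e-13). *Pcp4* (chr16:96467606-96525793, plus strand) encodes a small protein that binds calmodulin. Its level was 135, 139 and 147 CPM in Cb-N libraries against 126, 121 and 118 in Cb-T. The groups did not overlap. The log2 fold change was -0.19 (SE 0.032, adjusted p = 3.2e-06).

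*Rora* (chr9:68653786-69388246, plus strand) encodes the nuclear receptor ROR alpha, which Purkinje cells need to mature and whose loss causes the staggerer phenotype. It was at 521, 525 and 496 CPM in Cb-N libraries against 411, 419 and 398 in Cb-T. The groups were clearly separated, with a log2 fold change of -0.31 (SE 0.025, adjusted p = 1.4e-14). *Ppp1r17* (chr6:56017497-56032689, plus strand) encodes G-substrate, a target of cGMP-dependent protein kinase that inhibits protein phosphatases. Its level was 261, 265 and 273 CPM in Cb-N libraries against 237, 227 and 233 in Cb-T. Every mutant library lay below every wild-type library, and the log2 fold change was -0.18 (SE 0.026, adjusted p = 1.1e-07).

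The last 2 genes changed least. *Pcp2* (chr8:3623371-3625545, minus strand), also called L7, encodes a regulator of Gi/o proteins and is expressed in the brain almost exclusively by Purkinje cells. It was at 249, 243 and 250 CPM in Cb-N libraries against 232, 239 and 237 in Cb-T. The groups did not overlap, but the log2 fold change was -0.057 (SE 0.025, adjusted p = 0.057), a level lower by 3.89% (percent change -3.89), and the call was lost without Cb-N replicate 1 (-0.058, adjusted p = 0.11), without Cb-T replicate 1 (-0.046, adjusted p = 0.19) and with no filter on low counts (-0.058, adjusted p = 0.11). The 95% interval of the change ran from -0.11 to -0.0058, so that a fall of the size seen for *Itpr1* lay outside it. *Aldoc* (chr11:78322968-78327781, plus strand) encodes the glycolytic enzyme aldolase C, known as zebrin II, which marks stripes of Purkinje cells and is also expressed by astrocytes. It was at 1884, 1847 and 1907 CPM in Cb-N libraries against 1893, 1948 and 1942 in Cb-T. The groups overlapped. The log2 fold change of 0.050 (SE 0.02, adjusted p = 0.034) was not called by DESeq2 (0.041, adjusted p = 0.12), in a fit of all 12 libraries (0.037, adjusted p = 0.18), or without Cb-N replicate 1 (0.046, adjusted p = 0.11), Cb-N replicate 2 (0.032, adjusted p = 0.29), Cb-T replicate 2 (0.044, adjusted p = 0.14) or Cb-T replicate 3 (0.043, adjusted p = 0.13). Among 10 genes of Bergmann glia and astrocytes, 7 were higher and 2 lower in Cb-T, with *Gfap*, the intermediate filament of reactive astrocytes, at a log2 fold change of 2.91 and the water channel *Aqp4* at 0.79. The 2 lower ones were *Gdf10* (-0.37, adjusted p = 2.2e-14) and the glutamate transporter *Slc1a3* (-0.083, adjusted p = 4.4e-04), both strong in Bergmann glia. The list summed to 4885 to 4914 CPM over Cb-N libraries against 6524 to 6562 CPM over Cb-T libraries. The part of astrocytes in the level of *Aldoc* was not tested.

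Overlapping genes limit the reading of a pair of members. *Pcp2* shares 51.5% of its exonic bases with *Pet100* on the opposite strand, and the strand setting of the counting is not given in the sources used here. *Pet100*, a gene of mitochondrial complex IV assembly, was at 9.86 ± 0.348 CPM (SD, n = 3) in Cb-N, at 11.5 ± 0.963 CPM among Cb-T libraries and at 12.1 ± 0.553 CPM in F/M-N, where *Pcp2* was at 0.161 ± 0.0711 CPM. *Pcp4* shares 23.7% of its exonic bases with *Igsf5* on the same strand, and *Igsf5* was at 0.896 ± 0.121 CPM over Cb-N libraries against 0.701 ± 0.143 CPM over Cb-T libraries. Overlaps of *Itpr1* and *Rora* with antisense or unconfirmed transcripts covered less than 1% of their exonic bases.

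The second question was whether the fall was uniform over the genes. A uniform change leaves the ratio of any 2 members within a library unaltered. Each library was therefore scaled to the mean log2 level of the 9 genes in that library, and the test was repeated over all genes. The mean itself fell by 0.20 on the log2 scale between Cb-N and Cb-T, so that 61.0% of all genes became higher and 9.06% lower on this scale (70.0% in either direction).

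The change was not the same for all 9. *Aldoc* was higher than the members' mean by 0.25 (SE 0.021, adjusted p = 1.1e-14) and *Pcp2* by 0.14 (SE 0.026, adjusted p = 7.5e-06). *Rora* was lower by a log2 difference of -0.12 (SE 0.025, adjusted p = 6.8e-05), *Itpr1* by -0.11 (adjusted p = 1.4e-05) and *Plcb4* by -0.11 (adjusted p = 1.6e-04), and all 3 Cb-T libraries stood apart from all 3 Cb-N libraries for each of these 5 genes and for *Car8* (background 8.27% in the lower and 59.0% in the higher direction). Each gene is part of the mean it is set against, so that a rise of 1 member lowers the others on this scale. With *Aldoc* left out of the mean, *Rora* was at -0.085 (adjusted p = 0.0023) and *Itpr1* at -0.080 (adjusted p = 0.001). On that reference *Plcb4* was at -0.078 (adjusted p = 0.0049), *Pcp2* at 0.17 (adjusted p = 1.1e-07) and *Car8* at 0.0016 (adjusted p = 0.95). *Calb1* was called lower at -0.047 (adjusted p = 0.059), with overlapping libraries. That call was lost without Cb-N replicate 2 (-0.050, adjusted p = 0.11), without Cb-T replicate 1 (-0.036, adjusted p = 0.21), without Cb-T replicate 2 (-0.043, adjusted p = 0.16) and with *Aldoc* left out of the mean (-0.016, adjusted p = 0.53). *Car8* (-0.029, 95% interval -0.071 to 0.012), *Ppp1r17* (0.014, interval -0.040 to 0.068) and *Pcp4* (0.0095, interval -0.055 to 0.074) were not called different from the mean. *Car8* was called lower without Cb-N replicate 3 (-0.031, adjusted p = 0.097), and the sign of *Pcp4* turned without Cb-N replicate 1 (-0.017, adjusted p = 0.70) and without Cb-T replicate 1 (-0.013, adjusted p = 0.77).

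**Figure D2:**
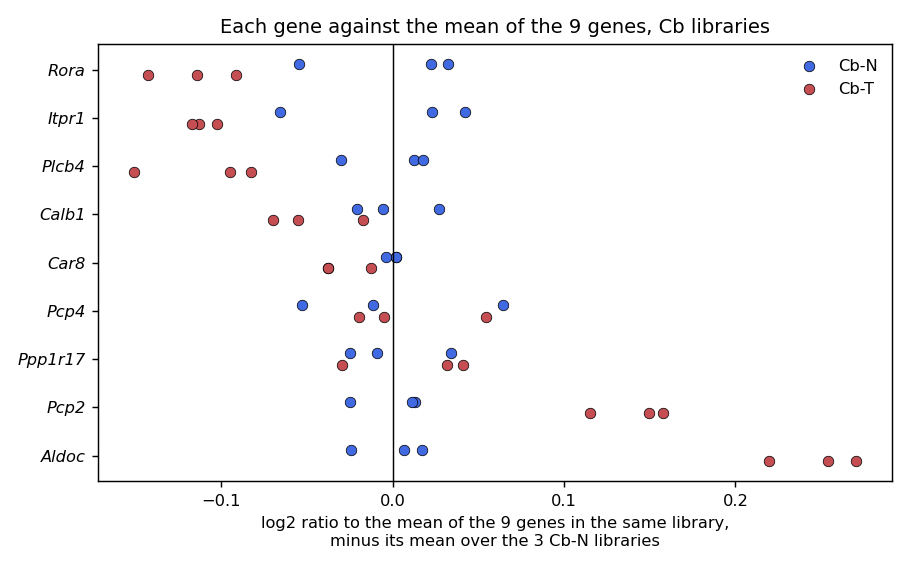
Each gene's log2 ratio to the mean of the 9 genes in the same library, set to 0 at its Cb-N mean (horizontal axis); points are the 3 Cb-N and 3 Cb-T libraries. *Aldoc* and *Pcp2* lie to the right in all Cb-T libraries, and *Rora*, *Itpr1* and *Plcb4* to the left.

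Ratios of 2 members show the same without any scaling of libraries. There were 17.6, 17.9 and 16.4 counts of *Itpr1* for each count of *Pcp2* in the Cb-N libraries and 14.8, 14.5 and 14.3 in the Cb-T libraries. The groups did not overlap (two-sided exact permutation p = 0.1, the smallest that 3 against 3 libraries allow). The ratio of *Calb1* to *Pcp2* moved from 4.38 ± 0.089 (SD, n = 3) to 3.84 ± 0.0413 and that of *Rora* to *Pcp2* from 2.07 ± 0.0888 to 1.74 ± 0.0459, both without overlap. *Itpr1* and *Plcb4* kept close to one ratio, 9.64 ± 0.219 in Cb-N and 9.63 ± 0.204 in Cb-T, and overlapped. Among *Pcp2*, *Car8* and *Ppp1r17*, the genes most restricted to Cb, the ratio of *Car8* to *Ppp1r17* overlapped, at 6.59 ± 0.152 and 6.4 ± 0.155. That of *Car8* to *Pcp2* moved from 7.09 ± 0.114 to 6.3 ± 0.0769 and that of *Ppp1r17* to *Pcp2* from 1.08 ± 0.0245 to 0.985 ± 0.0358, both without overlap.

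Granule cells, the other main neuron of the cerebellar cortex, served as a second reference. Of 12 granule cell genes, 10 were lower in Cb-T, with a median of -0.32, and their mean fell by 0.28. Relative to that mean, 5 Purkinje cell genes were higher, where 72.0% of all genes were higher and 4.73% lower. These were *Aldoc* (0.33, adjusted p = 3.7e-25), *Pcp2* (0.23, adjusted p = 6.2e-11), *Ppp1r17* (0.10, adjusted p = 0.0038), *Pcp4* (0.095, adjusted p = 0.014) and *Car8* (0.056, adjusted p = 0.074). The others were not called. *Calb1* differed by 0.038 (95% interval -0.020 to 0.097), *Plcb4* by -0.024 (-0.085 to 0.037), *Itpr1* by -0.026 (-0.083 to 0.032) and *Rora* by -0.031 (-0.091 to 0.030). The comparison depends on how the reference is taken, since with the median in place of the mean of the granule cell genes all 9 were higher, with *Itpr1* at 0.077, *Plcb4* at 0.079 and *Rora* at 0.072. Without Cb-N replicate 1, 3 genes were higher, with *Pcp4* at 0.071 (adjusted p = 0.12) and *Car8* at 0.060 (adjusted p = 0.11). *Car8* was also not called without Cb-N replicate 2 (0.049, adjusted p = 0.23), Cb-T replicate 2 (0.058, adjusted p = 0.17) or Cb-T replicate 3 (0.037, adjusted p = 0.27). *Calb1* was called higher without Cb-N replicate 3 (0.058, adjusted p = 0.064) or Cb-T replicate 1 (0.063, adjusted p = 0.054), and *Itpr1* was called lower without Cb-N replicate 3 (-0.052, adjusted p = 0.072).

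In F/M, which holds no Purkinje cells, the same genes report other cells. Of the 8 genes that passed the filter, 4 were lower and 4 higher in *Tpp1*-/- mice, where 14.4% of the 16665 genes tested were lower and 12.8% higher. Other markers moved in F/M as well. Of the 14 microglial genes, 12 were higher, with a sum of 547 to 561 CPM over F/M-N libraries against 880 to 906 CPM over F/M-T libraries, and 6 of the 10 astrocyte genes were higher, with sums of 4697 to 5030 against 5473 to 5838 CPM. Of the brainstem neuron genes, 4 of 10 tested were higher, with a sum of 42.8 to 46.1 CPM over F/M-N libraries against 66.5 to 67.6 CPM over F/M-T libraries. Their part in the changes in F/M and in the difference between the areas was not tested. *Pcp2* did not pass the filter, with 7, 4 and 10 raw counts in the F/M-T libraries. *Rora* fell most, from 146, 157 and 149 CPM (F/M-N) to 110, 118 and 110 CPM (F/M-T), or by -0.38 on the log2 scale (SE 0.037, adjusted p = 2.8e-07). *Pcp4* (-0.20, adjusted p = 0.0025), *Plcb4* (-0.18, adjusted p = 0.0013) and *Itpr1* (-0.15, adjusted p = 0.0030) were lower as well, and for these 4 genes the F/M groups did not overlap, against 23.6% of all genes in the lower direction.

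The other 4 went up in F/M. *Aldoc* rose from 748, 731 and 765 CPM in F/M-N to 852, 822 and 828 CPM among mutants (log2 fold change 0.19, adjusted p = 3.6e-05). *Car8* rose from 14.0, 12.6 and 12.9 CPM to 15.8, 16.1 and 14.3 CPM (0.26, adjusted p = 0.018). *Ppp1r17* rose 1.96-fold at a very low level, from 27, 17 and 31 raw counts to 46, 56 and 45 (log2 fold change 0.97, SE 0.22, adjusted p = 0.0032). The groups did not overlap for these 3 genes, against 13.3% of all genes in the higher direction. *Calb1* overlapped between groups, with 141, 145 and 151 CPM (F/M-N) against 155, 158 and 150 (F/M-T; 0.11, adjusted p = 0.022), and was not called without F/M-N replicate 1 (0.091, adjusted p = 0.14).

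The difference between the change in Cb and the change in F/M was tested directly by the interaction over all 12 libraries. It was called for 6 of the 9 genes, all with the more negative change in Cb, where 10.1% of 17482 genes were called in that direction. The largest differences were those of *Ppp1r17* (-1.13, adjusted p = 2.4e-05), *Car8* (-0.46, adjusted p = 3.8e-07) and *Calb1* (-0.34, adjusted p = 5.6e-08), which had opposite signs in Cb and F/M. *Itpr1* (-0.14, adjusted p = 0.018), *Aldoc* (-0.12, adjusted p = 0.0059) and *Plcb4* (-0.11, adjusted p = 0.090) differed less, the last being lost with no filter on low counts (-0.087, adjusted p = 0.25) and when libraries numbered 1 (-0.12, adjusted p = 0.22), 2 (-0.12, adjusted p = 0.13) or 3 (-0.076, adjusted p = 0.35) were left out of each group. The call of *Aldoc* was lost without those numbered 1 (-0.090, adjusted p = 0.19). For *Rora* the difference was 0.090 (95% interval -0.0046 to 0.19) and for *Pcp4* 0.031 (interval -0.084 to 0.15), neither called, so that their changes in the 2 areas were not told apart. *Pcp2* had too few counts in F/M for its difference to be informative (adjusted p = 0.18), and it was called without the libraries numbered 2 (-1.57, adjusted p = 0.07). *Rora* was called with no filter on low counts (0.11, adjusted p = 0.079) and with the replicate number as a block (0.091, adjusted p = 0.064).

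**Figure D3:**
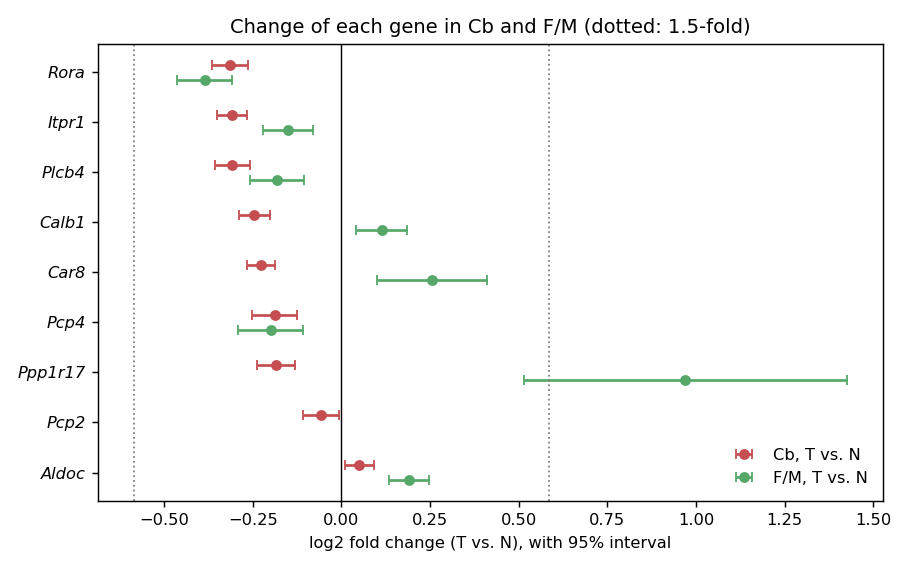
Log2 fold change, T vs. N (horizontal axis), of each gene in Cb and in F/M with its 95% interval; dotted lines mark 1.5-fold and *Pcp2* was not tested in F/M. *Rora*, *Pcp4*, *Plcb4* and *Itpr1* are lower in both areas, whereas *Calb1*, *Car8* and *Ppp1r17* are lower in Cb and higher in F/M.

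The members that fell most in Cb are also the longest genes. From first to last annotated base, *Pcp2* spans 2.17 kb, *Aldoc* 4.81 kb, *Ppp1r17* 15.2 kb, *Calb1* 26.8 kb, *Pcp4* 58.2 kb, *Car8* 95.7 kb, *Itpr1* 338 kb, *Plcb4* 356 kb and *Rora* 734 kb. Across the 9 genes, Spearman's rho between span and log2 fold change was -0.917 (Pearson's r with log10 span -0.888), and with exonic length rho was -0.817. This relation was looked at after the values had been seen, the genes share the same 6 libraries and are not independent replicates, and no p is given. Across 9856 protein-coding genes of at least 10 CPM in Cb-N, rho was -0.207, and the median change went from 0.082 for genes under 5 kb to -0.090 for genes of 200 to 500 kb. In F/M, rho was -0.690 over the 8 members tested and -0.289 over 9844 protein-coding genes. In other lists in Cb, rho was -0.559 over 12 granule cell genes, -0.171 over 150 genes outside the list that were at least 8-fold higher in Cb-N than in F/M-N, and 0.053 over 29 further Purkinje cell genes.

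Set against the median change of genes of like span, every member was lower, by -0.032 for *Aldoc*, -0.14 for *Pcp2* and -0.11 for *Pcp4*, and by -0.15 to -0.23 for the other 6. The gap between *Pcp2* and *Itpr1*, -0.14 against -0.22, is narrowed by this scale itself. The median it subtracts is 0.082 for genes of the span of *Pcp2* and -0.090 for those of the span of *Itpr1*. The part of gene span in the changes was not tested. Between the log2 ratio of Cb-N to F/M-N, a measure of restriction to Cb, and the change in Cb, rho was 0.183 over the 9 genes and -0.211 over the 29 further Purkinje cell genes (Pearson's r 0.244 and -0.380).

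**Figure D4:**
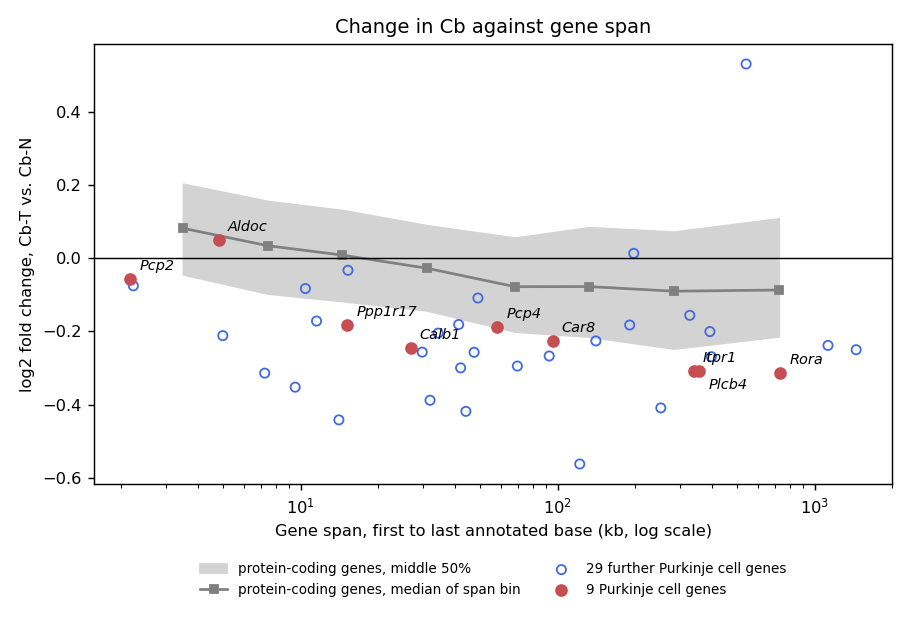
Log2 fold change in Cb (vertical axis) against gene span in kb (horizontal axis, log scale); filled points are the 9 Purkinje cell genes, open points 29 further ones, and the line and band the median and middle 50% of protein-coding genes by span. The 9 genes descend from *Pcp2* and *Aldoc* to *Rora*, whereas the open points do not (rho 0.053).

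*Rora* protein acts on DNA elements that hold the letters AGGTCA, and *Pcp2* and *Pcp4* are among the genes described as its targets in Purkinje cells, so that the start-site windows of the members are of interest beside the fall of *Rora*. Upstream sequence of 250 bases from RefSeq (GRCm38.p6) was given for 5 of the 9 members, and the most upstream start of each was used. AGGTCA, searched on both strands as AGGTCA or TGACCT with no other motif searched, was found upstream of *Pcp2* and *Pcp4* and not in the windows of *Aldoc*, *Plcb4* and *Rora*, and 14.0% of all 32851 windows of this length held it. The windows with a match are chr8:3625548-3625797 on the minus strand for *Pcp2* and chr16:96467356-96467605 on the plus strand for *Pcp4*, each written 5′ to 3′ along the gene with the matching letters in capitals.
*Pcp2*: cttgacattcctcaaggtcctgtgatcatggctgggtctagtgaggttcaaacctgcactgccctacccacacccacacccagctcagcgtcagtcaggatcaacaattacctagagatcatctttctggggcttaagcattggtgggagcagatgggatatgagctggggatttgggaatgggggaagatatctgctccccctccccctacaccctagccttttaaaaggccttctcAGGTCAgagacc
*Pcp4*: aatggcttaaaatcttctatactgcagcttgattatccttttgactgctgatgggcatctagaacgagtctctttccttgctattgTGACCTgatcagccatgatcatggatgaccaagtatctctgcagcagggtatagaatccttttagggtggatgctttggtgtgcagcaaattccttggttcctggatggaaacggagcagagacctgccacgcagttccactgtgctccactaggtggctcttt
The match begins 12 bases upstream of the start in *Pcp2* and 164 bases upstream in *Pcp4*, where it reads TGACCT. These 2 genes fell less than *Rora* itself, by -0.057 and -0.19 against -0.31 on the log2 scale. Binding of *Rora* protein at these matches, and its part in these changes, was not tested. Of 5 genes listed as targets of Rora, among them *Pcp2*, *Pcp4* and *Itpr1*, 4 were lower, the glutamate transporter *Slc1a6* at -0.20 (adjusted p = 7.7e-08) and the secreted ligand *Shh* at -0.083 without a call (adjusted p = 0.62).

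Wider lists of Purkinje cell genes gave similar medians in Cb. Of 29 further Purkinje cell genes, 25 were lower and 1 higher, with a median of -0.24 and a sum of 9266 to 9356 CPM over Cb-N libraries against 7819 to 7876 CPM over Cb-T libraries. The 2 largest changes were those of the calcium release channel *Ryr1* (-0.56, adjusted p = 4.1e-15) and the transcription factor *Foxp2* (0.53, adjusted p = 1.2e-08). *Foxp2* was at 14.6 CPM in Cb-N against 42.3 CPM in F/M-N, so that it is not restricted to the cerebellum. The 3 smallest were *Ebf2* (0.014, adjusted p = 0.89), parvalbumin (*Pvalb*, -0.033, adjusted p = 0.26) and the G-protein subunit *Gng13* (-0.075, adjusted p = 0.054), the last of which was called. In F/M, 11 of the 28 tested were lower and 1 higher (median -0.039).

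Among 17 other genes of metabotropic glutamate and calcium signaling, partly the same as those of the preceding list, 13 were lower in Cb and the rest were not called, with a median of -0.24. One, the scaffold gene *Homer1*, passed the limits of a DEG, at -0.61 (adjusted p = 7.8e-16), where 2.66% of all genes in Cb were DEG in the lower direction. Its change over the F/M libraries was -0.79 (adjusted p = 2.1e-12), and it was higher in F/M-N, at 256 CPM, than in Cb-N, at 67.3 CPM. In F/M, 10 of the 17 were lower and 1 higher (median -0.18), *Plcb3* being the higher one (0.27, adjusted p = 0.0025). Of 5 genes of cGMP signaling, the pathway in which *Ppp1r17* acts, 4 were lower in Cb and nitric oxide synthase *Nos1* was higher at 0.061 (adjusted p = 0.086). The phosphodiesterase *Pde5a* changed most, at -0.48 (adjusted p = 3.8e-16), followed by the kinase *Prkg1* (-0.23, adjusted p = 0.0013) and the guanylate cyclase subunits *Gucy1a3* (-0.12, adjusted p = 0.0074) and *Gucy1b3* (-0.066, adjusted p = 0.071).

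*Aldoc* defines the zebrin-positive stripes, so other genes of these stripes were set beside it. Of 5 zebrin-positive genes, 4 were lower in Cb-T, namely *Kctd12* (-0.35, adjusted p = 9.0e-16), *Gabbr2* (-0.32, adjusted p = 1.9e-13), *Slc1a6* (-0.20) and *Plcb3* (-0.18, adjusted p = 1.1e-04). *Sphk1* differed by 0.018 (adjusted p = 0.92) at about 5.29 CPM. The median of the 5 was -0.20. *Plcb4*, which is strongest in zebrin-negative cells, was at -0.31, and the difference between the classes of stripe was not tested.

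Of 12 paralogs of the members, 4 were lower and 4 higher in Cb, with a median of 0.033, near the shares among all genes tested. *Aldoa*, the aldolase of most tissues, was higher at 0.21 (adjusted p = 1.2e-11) and the glial carbonic anhydrase *Car2* at 0.25 (adjusted p = 1.4e-10), both larger than the 0.050 of *Aldoc*. *Pcp4l1* was higher at 0.39 and *Rorb* at 0.21, whereas *Pcp4* and *Rora* were lower. *Itpr3* (-0.33), *Car10* (-0.22), *Car11* (-0.18) and *Plcb3* (-0.18) were lower, as were *Itpr1*, *Car8* and *Plcb4*.

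Among other cerebellar neurons, 7 of 8 genes of interneurons and unipolar brush cells were lower (median -0.33), and 3 of them were DEG. *Eomes*, a marker of unipolar brush cells, went from 53.2 to 11.4 CPM (-2.20, adjusted p = 4.0e-32), the receptor gene *Grm2* from 22.3 to 10.2 CPM (-1.13, adjusted p = 1.2e-17) and *Tfap2b* from 71.4 to 46.4 CPM (-0.61, adjusted p = 9.1e-17). No Purkinje cell gene among the 9 changed by as much as any of these. Among glia, the microglial DEG with the largest changes were *Cd68* (3.13), *Tyrobp* (2.93), *C1qa* (2.68) and *Trem2* (2.67), and of the oligodendrocyte genes *Opalin* alone was a DEG (0.71). The largest changes among the brainstem genes were those of *Slc18a3* (4.55), *Chat* (3.81), *Dbh* (3.62) and *Slc6a2* (3.10), from levels of about 1 CPM or less in Cb-N.

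**Figure D5:**
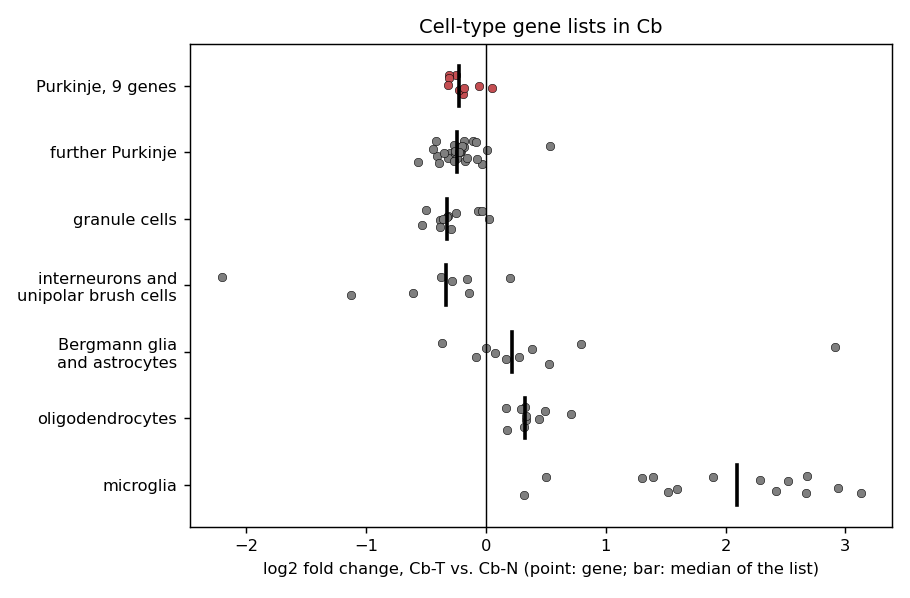
Log2 fold change, Cb-T vs. Cb-N (horizontal axis), of each gene in 7 cell-type lists (rows); points are genes and bars list medians. The medians of the Purkinje cell lists lie at -0.23 and -0.24, between the granule cell list at -0.32 and the glial lists above 0.

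The pattern of *Pcp2* over the 12 libraries was most like that of 5 genes that were likewise near 0 in F/M, by the root mean square difference of centered log2 CPM among 14938 genes. They were *Fat2* (0.35), *Cbln3* (0.50), *Gabra6* (0.58), *Crtam* (0.62) and *Cnpy1* (0.73). *Fat2*, *Cbln3* and *Gabra6* belong to the granule cell genes used above as the second reference. Within Cb, *Fat2* fell by 0.36, *Gabra6* by 0.39, *Crtam* by 0.24 and *Cnpy1* by 0.47 on the log2 scale, whereas *Cbln3* differed by 0.025 (adjusted p = 0.29). For the other members the nearest genes were *Inpp5a* for *Calb1* (0.072), *Tmem56* for *Pcp4* (0.049), *Steap2* for *Itpr1* (0.050), *Il20rb* for *Car8* (0.30), *H3f3b* for *Aldoc* (0.036), *Olfm3* for *Plcb4* (0.051), *Dao* for *Ppp1r17* (0.41) and *Sgpp2* for *Rora* (0.050). *Dao* was higher in Cb-T (0.10, adjusted p = 0.023) where *Ppp1r17* was lower, since the distance is set mainly by the difference between the areas.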

How the data were processed

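RNA of Cb and F/M was sequenced as 12 libraries, 3 in each of 4 groups defined by the sample titles. Per the labels, the libraries were made with a stranded poly(A) mRNA kit and read as single ends of 50 bases. The authors aligned the reads to mm10 (GRCm38) and deposited raw counts per gene, 1 table for each library and without normalization. The submitters' processing notes name STAR 2.5.1b and featureCounts 1.26.1, and the strand setting and the handling of reads with several alignments are not given in the sources used here, so that reads of overlapping or near-identical genes may be divided differently from what the gene names imply.

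From these counts, values were computed in R 4.3.3. Genes were kept by filterByExpr of edgeR 4.0.16 (minimum count 10, minimum total count 15), libraries were normalized by TMM, and each contrast was tested with the quasi-likelihood test and Benjamini-Hochberg adjustment over all genes tested. Printed CPM values share 1 TMM normalization over 12 libraries, log2 fold changes come from the fit of each contrast, and RPKM is CPM per kilobase of merged GENCODE M21 exons. For the relative tests, each library's offset was the mean log2 CPM of the 9 genes or of 12 granule cell genes. Differences between changes in Cb and F/M were tested as the interaction over all libraries. The script was tested on simulated data. Replicate pairs differed by more than sampling noise (chi-square per degree of freedom 1.27 to 3.46 over 12 pairs). Each library was counted as its own replicate, although such a spread does not show that libraries come from separate mice.

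The genes and lists were chosen with earlier results of these data known. Named genes were the 9 members, from each list the DEG in Cb (at most 4, by size), the 3 largest and 3 smallest changes among the further Purkinje cell genes, the nearest genes by pattern and *Tpp1*. A few results that this rule names are not reported here. Genes of lists of 5 or fewer, the paralogs, *Plcb3*, *Gdf10*, *Slc1a3*, *Pet100* and *Igsf5*, the Hox genes at 0 and the relation to gene span were added after their values had been seen. Alternatives were DESeq2 1.42.0, limma-voom (limma 3.58.1), RLE size factors, no filter, a replicate block, other references, a fit of all 12 libraries and leaving out each replicate. The 2 granule cell and Purkinje references are taken from the libraries they scale. Intervals and floors cover counting error and the spread between libraries, not differences in dissection.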

Additional observations from a re-analysis of the deposited data

Results flagged for a closer look

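For 6 of the 9 Purkinje cell genes, the change between T and N differed between Cb and F/M in the interaction test of edgeR over all 12 libraries, with Benjamini-Hochberg adjustment. The log2 difference, Cb minus F/M, was -0.3404 for *Calb1*, -0.1386 for *Itpr1*, -0.4633 for *Car8*, -0.1201 for *Aldoc*, -0.1064 for *Plcb4* and -1.134 for *Ppp1r17*. For *Calb1*, *Car8* and *Ppp1r17* the 2 areas moved in opposite directions, whereas *Itpr1* and *Plcb4* were lower in both and *Aldoc* was higher in both. Groups of 3 libraries are too small for a test of single outlying libraries, and none was made.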

How the results depend on the processing

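Over 546 combinations of a gene's result and an alternative, 508 kept their direction and side of the threshold, 24 lost the call, 8 gained one and 6 turned in sign. The turned values were *Pcp4* relative to the members' mean when 1 library was left out (range -0.01694 to 0.04226 over its alternatives, with -0.01694 without Cb-N replicate 1 and -0.01275 without Cb-T replicate 1), *Car8* on that scale with *Aldoc* left out of the reference (0.0016), and *Itpr1*, *Plcb4* and *Rora* relative to the granule cell genes with the median as reference (0.07679, 0.07884 and 0.07186), none of which was called in the reported fit. The number of members higher relative to the granule cell genes was 5 as reported, 9 with the median as reference and 3 to 6 when 1 library was left out. The other numbers that were recounted stayed within 1.5 times the reported ones: 7 to 8 lower in Cb, 4 lower in F/M, 4 to 6 in the interaction, 9 higher in Cb-N than in F/M-N and 5 to 7 relative to the members' mean. Members higher in Cb or in F/M were not recounted as a number. *Aldoc*, the only one higher in Cb, lost its call in several alternatives, among them DESeq2 (adjusted p = 0.12). *Calb1*, higher in F/M, lost its call without F/M-N replicate 1 (adjusted p = 0.14). The replicate block gave 8, 4, 6, 9, 6 and 5 members, the reported numbers, and added a call for the interaction of *Rora* (0.091, adjusted p = 0.064). For the interaction, the block was the replicate number within genotype, as if a number marked Cb and F/M of 1 mouse. Libraries of the same number did not clearly deviate together, with correlations of -0.022 to 0.029 for N and T in Cb, of 0.013 to 0.089 for N and T in F/M, of 0.00080 to 0.052 for Cb and F/M of N and of -0.0024 to 0.019 for Cb and F/M of T. Areas may still come from the same mice under other numbers, and such a pairing was not tested. Depth limits *Pcp2* and *Ppp1r17* in F/M, where *Pcp2* had 2 to 10 counts per library.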
